A study of Mus musculus with 11 samples.

Results

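The genes described here are 8 that neutrophils are known for: S100a8, S100a9, Csf3r, Cxcr2, Retnlg, Il1r2, Camp and Ngp. They were taken as a fixed list by symbol, and all 8 were among the 23255 Ensembl genes of the deposited table. Lung RNA of C57BL/6 mice was sequenced in 11 libraries. The control group held 3 libraries from untreated mice, the naphthalene group 3 from mice given naphthalene, and the osimertinib group 5 from mice given naphthalene first and osimertinib afterwards. Naphthalene is a compound that injures the club cells of mouse airways, and osimertinib is an inhibitor of mutant EGFR used against lung cancer. Because the osimertinib mice had also received naphthalene and no mice received osimertinib alone, the osimertinib group differs from the control group by both agents. Dose, timing, sex, age and what makes libraries of a group separate are not given in the sources used here, so p-values measure only the spread between these libraries, which may be technical.

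Neutrophils are short-lived granulocytes made in the bone marrow under the cytokine G-CSF, and many of them are held in the capillaries of the lung even at rest. They enter injured lung by following chemokines, and mature neutrophils carry large amounts of the S100a8 and S100a9 transcripts, whose protein products pair as calprotectin. Camp and Ngp, in contrast, are transcribed mainly by neutrophil precursors in the marrow, which store the proteins in granules. The 8 genes therefore span alarmins (S100a8, S100a9), surface receptors (Csf3r for G-CSF, Cxcr2 for chemokines, Il1r2 as a decoy for interleukin 1), a secreted resistin-like protein (Retnlg) and granule proteins (Camp, Ngp).

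The promoters of S100a8, S100a9 and Csf3r are shown because the first pair are neighbours that had the highest levels per length of the 8, and Csf3r is the most abundant receptor among them. Each is the 250 bases before the start of the gene, from RefSeq on GRCm38.p6, an earlier build than the GRCm39 that the submitters' processing notes name. S100a8 lies at chr3:90668821-90669070 on the plus strand, S100a9 at chr3:90695722-90695971 on the minus strand and Csf3r at chr4:126024409-126024658 on the plus strand. Capitals mark matches, on either strand, to a C/EBP-type motif (TTGCNNAA), a PU.1-type core (GAGGAA) or a TATA box (TATAAA).
S100a8: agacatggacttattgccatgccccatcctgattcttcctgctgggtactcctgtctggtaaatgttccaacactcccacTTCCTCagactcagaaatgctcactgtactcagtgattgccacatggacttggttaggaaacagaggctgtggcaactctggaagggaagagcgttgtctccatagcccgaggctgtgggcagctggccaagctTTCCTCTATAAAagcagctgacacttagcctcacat
S100a9: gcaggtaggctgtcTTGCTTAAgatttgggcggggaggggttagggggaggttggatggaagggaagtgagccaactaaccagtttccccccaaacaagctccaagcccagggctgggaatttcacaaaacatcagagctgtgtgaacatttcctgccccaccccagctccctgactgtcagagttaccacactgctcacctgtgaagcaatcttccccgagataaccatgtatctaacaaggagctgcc
Csf3r: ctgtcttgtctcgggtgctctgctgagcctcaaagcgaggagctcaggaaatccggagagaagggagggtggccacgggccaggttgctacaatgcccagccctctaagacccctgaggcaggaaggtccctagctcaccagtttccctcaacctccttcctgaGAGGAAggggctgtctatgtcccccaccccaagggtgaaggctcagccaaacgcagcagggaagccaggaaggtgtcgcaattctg
C/EBP factors and PU.1 are regulators of granulocyte genes. In S100a8, 2 PU.1-type matches, read on the opposite strand, and 1 TATA match were found, and 1 of the PU.1-type matches directly adjoins the TATA match. S100a9 had 1 C/EBP-type match and Csf3r 1 PU.1-type match. Of the 8 promoters, 3 held the C/EBP-type letters, 3 the PU.1-type letters and 1 the TATA letters, and among 32851 mouse promoters of the same length the shares were 9.56%, 23.3% and 12.4%. A match describes letters in this window and is no evidence of binding.

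The values below are the deposited signal, a read count scaled to a normalised library size (CPM), and the reads behind each were recovered from the table. Libraries held 5045361 to 13009975 reads. A single gene without a symbol in the annotation used took 43.9% to 60.3% of the reads in all 3 naphthalene libraries and in osimertinib 2, and at most 0.0337% in the others, which left 2018541 to 2965328 reads for all other genes in those 4 libraries against 8418669 to 13006929. In osimertinib 3, another entry without a symbol took 2169552 of 13009975 reads, and an entry with identical values took as many. One read was worth 0.0568 to 0.459 of signal, so counting error is largest in naphthalene. Naphthalene 3 and osimertinib 3 stood apart from the rest: on the first principal component of all genes, with 38.4% of the variance, osimertinib 3 scored 72.7 and naphthalene 3 scored 26.2, while the other 9 libraries lay between -29.2 and 1.14. In bulk lung RNA, fewer neutrophils and less of these transcripts per neutrophil cannot be told apart. All 5 epithelial markers of lung (Sftpc, Sftpb, Scgb1a1, Ager and Foxj1) were present in every group, with a summed signal of 13846 to 23641 per library.

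The alarmin S100a8 encodes the smaller subunit of calprotectin, a calcium- and zinc-binding protein released by activated neutrophils. Its signal was 15.7, 14.1 and 7.35 in control 1 to 3 and 9.79, 4.75 and 129 in naphthalene 1 to 3. In osimertinib 1 to 5 it was 12.9, 17.2, 131, 13.2 and 7.13. Naphthalene 3 and osimertinib 3 stood above all other libraries, whose values overlapped between the 3 groups. The counts behind these values ran from 12 reads in naphthalene 2 to 1470 in osimertinib 3, and the exact Poisson 95% interval in naphthalene 2, which covers counting error only, was 2.45 to 8.29. Naphthalene 3 was 17.8 times the mean of the other naphthalene libraries, and osimertinib 3 was 10.4 times the mean of the other osimertinib libraries.

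Its partner S100a9 followed the same library order at the top. Signals were 25.3, 20.1 and 15.1 in control, 9.79, 5.93 and 146 in naphthalene, and 16.6, 15.6, 182, 22.01 and 11.3 in osimertinib. Again a single library in each treated group was high, by 18.6 times in naphthalene and 11.1 times in osimertinib over the mean of the others. Apart from naphthalene 3, both naphthalene libraries (31 and 15 reads) lay below every control and every osimertinib library.

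S100a8 and S100a9 kept a similar proportion to each other in all 11 libraries. Per kilobase of exon, the ratio of the S100a8 level to the S100a9 level was 0.523 to 1.18, with 0.952 in naphthalene 3 and 0.774 in osimertinib 3. Against the receptor Csf3r the proportion was not so steady. The S100a9 level per kilobase was 3.25 to 9.96 times the Csf3r level in 9 libraries, 13.9 times in naphthalene 3 and 24.5 times in osimertinib 3. In both libraries the alarmins stood further above the others of their group than Csf3r did. Both alarmins are short genes, a class that was higher in these libraries, as given below, and Csf3r is a long one. The part of gene length in this difference was not tested.

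Csf3r encodes the receptor through which G-CSF drives neutrophil production and survival. Its signal was 19.0, 18.1 and 11.2 in control, 10.7, 12.3 and 70.7 in naphthalene, and 15.6, 19.9, 49.8, 16.6 and 7.60 in osimertinib. The same pair of libraries was highest, and the groups overlapped without them as well. Naphthalene 3 was 6.15 times and osimertinib 3 was 3.34 times the mean of the others of its group.

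Cxcr2, the receptor for the chemokines that draw neutrophils into tissue, had signals of 4.38, 4.91 and 4.14 in control. They were 3.47, 3.56 and 19.3 in naphthalene, and 5.19, 5.56, 9.53, 6.98 and 3.798 in osimertinib. Naphthalene 3 stood apart by 5.48 times, on 42 reads. Osimertinib 3, at 1.77 times the mean of the others, was highest of its group but close to osimertinib 4.

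Retnlg encodes resistin-like gamma, a small secreted protein made by myeloid cells. Its signal was 5.63, 8.97 and 5.01 in control, 3.47, 1.98 and 22.9 in naphthalene, and 5.11, 7.41, 24.4, 5.19 and 4.73 in osimertinib. The pattern matched that of the alarmins, at 8.42 times the others in naphthalene 3 and 4.35 times in osimertinib 3. Naphthalene 1 and 2, with 11 and 5 reads, were below every other library.

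Il1r2, a decoy receptor that binds interleukin 1 without signalling, was near the limit of detection. It had 10, 1 and 6 reads in control, 0, 2 and 5 in naphthalene, and 9, 3, 41, 9 and 3 in osimertinib. Osimertinib 3 alone had more than 10 reads, with a signal of 3.65 against 0.200 to 0.794 in the other osimertinib libraries. In naphthalene 3 the signal of 2.29 rested on 5 reads.

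Camp encodes cathelicidin, an antimicrobial peptide of the secondary granules, and Ngp encodes neutrophilic granule protein. Camp had 1, 0 and 0 reads in control, 1 in each naphthalene library, and 0, 0, 4, 6 and 5 in osimertinib. Ngp had 1, 8 and 4 reads in control, 4, 0 and 2 in naphthalene, and 4, 0, 10, 12 and 27 in osimertinib. Ngp was highest in naphthalene 1 and osimertinib 5 rather than in the libraries numbered 3. Its signal of 1.80 in osimertinib 5 was the highest of all 11, and that library had the lowest osimertinib signal of S100a8, S100a9, Csf3r, Cxcr2, Retnlg and Il1r2. At these counts, differences in Camp and Ngp between the groups were not detectable, and a library with 0 reads is taken to allow up to 3 reads.

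**Figure D1:**
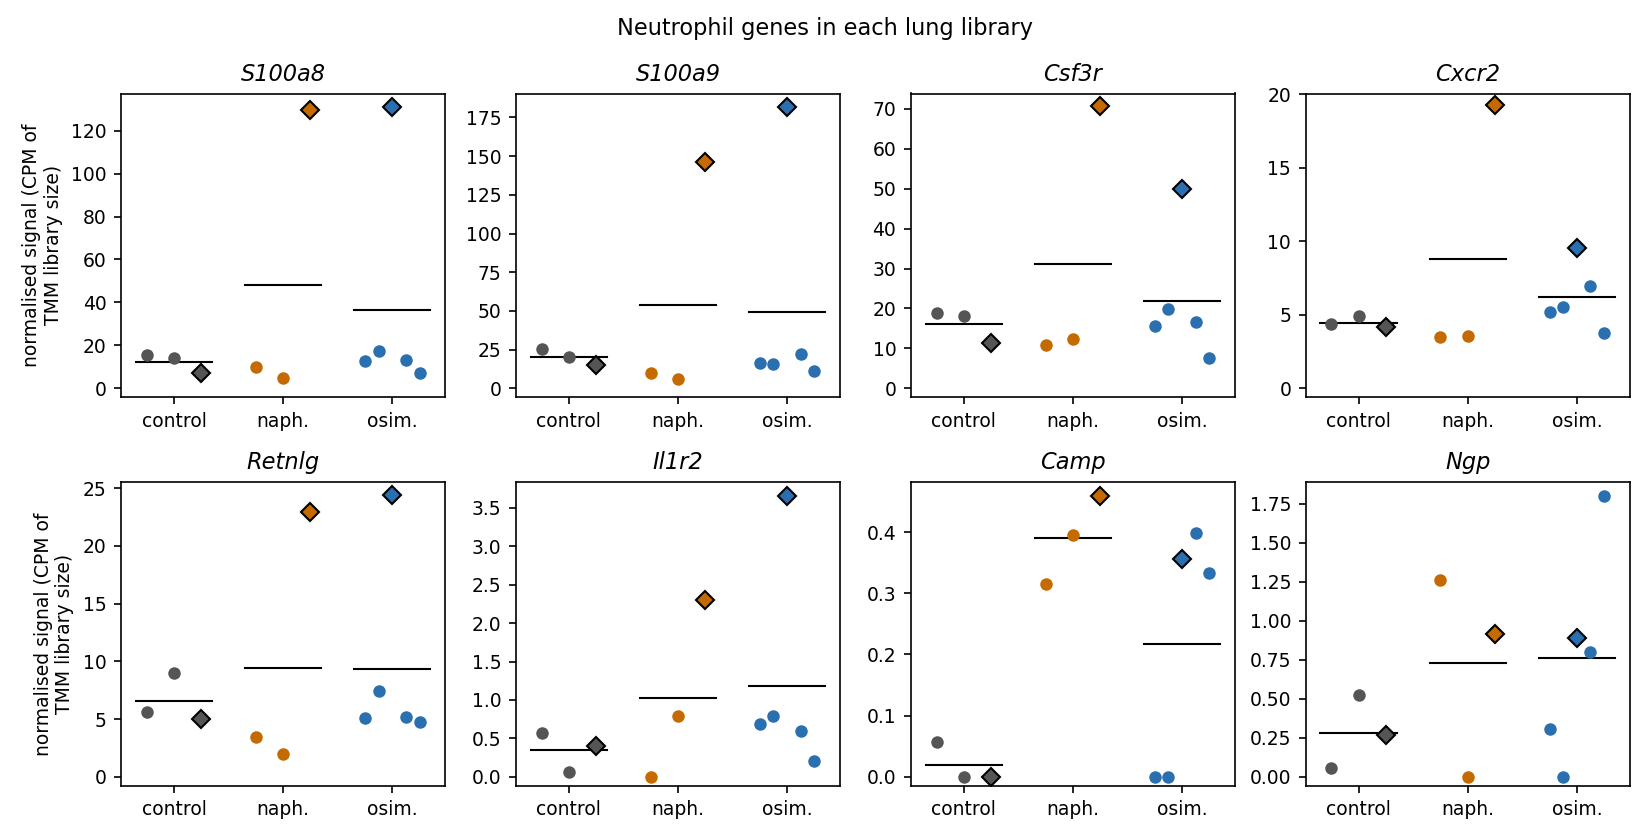
Deposited signal (CPM of a normalised library size, y axis) of each of the 8 neutrophil genes in each of 11 libraries, by group (x axis). Points are libraries, diamonds are the libraries numbered 3, and bars are group means. The diamonds of naphthalene and osimertinib stand above the other libraries for S100a8, S100a9, Csf3r, Cxcr2 and Retnlg, at 129 and 131 for S100a8.

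On a scale corrected for exon length, the 8 genes had nearly the same order in every group. In control, the mean level per kilobase was 38.7 for S100a9, 25.5 for S100a8, 11.02 for Retnlg, 4.60 for Csf3r, 1.47 for Cxcr2, 0.243 for Il1r2, 0.231 for Ngp and 0.0250 for Camp (n = 3 each). The ranges of S100a9 and S100a8 over the control libraries overlapped, but within each control library S100a8 was the lower, at 0.523 to 0.752 of S100a9. Il1r2 and Ngp are not ordered beyond their spread. Naphthalene 3 and osimertinib 3 had the same order as the control means, with levels per kilobase of 280 and 348 for S100a9 and of 20.2 and 14.2 for Csf3r. S100a8 was above S100a9 in naphthalene 1 and osimertinib 2 only.

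Libraries of a group differed widely in these genes. S100a8 had a signal of 12.4 ± 4.42 (SD, n = 3) in control, 48.0 ± 70.6 (n = 3) in naphthalene and 36.3 ± 53.1 (n = 5) in osimertinib, a coefficient of variation of 35.7%, 147% and 146%. Both treated SDs exceed their means because each group had 1 library far above the rest. The highest library was 2.13 times the lowest in control, 27.3 times in naphthalene and 18.4 times in osimertinib.

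The other tested genes varied less than S100a8, or like it. S100a9 had 20.2 ± 5.12 in control, 53.9 ± 79.7 in naphthalene and 49.4 ± 74.0 in osimertinib. Csf3r had 16.1 ± 4.25, 31.2 ± 34.2 and 21.9 ± 16.2, and Retnlg had 6.54 ± 2.13, 9.47 ± 11.7 and 9.37 ± 8.47, in the same order of groups. Cxcr2 was the most even, at 4.48 ± 0.394, 8.77 ± 9.10 and 6.21 ± 2.18. Its control libraries differed by no more than 1.19 times, where its naphthalene libraries differed by 5.55 times and its osimertinib libraries by 2.51 times.

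Set against all genes, this spread was in the upper tail in each group for S100a8, S100a9, Csf3r and Retnlg. The SD of log2(signal + 1) of S100a8 was 0.54 in control, 2.38 in naphthalene and 1.55 in osimertinib, where the median gene had 0.12, 0.26 and 0.25 and the 95th percentile of genes was 0.33, 0.77 and 0.66. In control, 99.1% of genes had a smaller SD than S100a8, 96.3% than S100a9, 97.5% than Csf3r and 97.3% than Retnlg, but only 42.0% than Cxcr2. The untreated libraries thus already differed in S100a8, S100a9, Csf3r and Retnlg by more than in most genes. Control 3 was the lowest of its group for S100a8, S100a9, Csf3r, Cxcr2 and Retnlg, and highest for none. It was highest for 30.2% of all genes, and the share of all genes for which it was lowest was not counted. In naphthalene at least 99.3% of genes had a smaller SD than any of those 5, Cxcr2 included.

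The high values of naphthalene 3 and osimertinib 3 were compared with those of other genes in the same libraries. In both libraries short genes were higher as a class. Over 888 genes with less than 1000 exonic bases, the median log2 ratio of the library to the mean of the others of its group was 0.51 in naphthalene 3 and 1.06 in osimertinib 3, against 0.03 and 0.00 over 15272 longer genes, and -0.07 against -0.01 in control 3. S100a8 (486 bases), S100a9 (522) and Retnlg (593) belong to the short class, while Csf3r (3506) and Cxcr2 (3048) belong to the long one.

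Within their own length class, the 5 tested genes still stood high in naphthalene 3. At least 99.2% of genes of the same class had a smaller log2 ratio there than each of them, and Csf3r (2.52) and Cxcr2 (2.17) were 2 of only 9 long genes with a log2 ratio over 2. In all, 36 of 16225 genes (0.222%) passed that ratio in naphthalene 3, all 5 tested neutrophil genes among them. In osimertinib 3, 211 genes (1.3%) passed it, among them S100a8 (3.28) and S100a9 (3.40). Of the 888 short genes, the class of both, 137 (15.4%) passed it there, against 0.321% of long genes. S100a8 lay above 98.99% of short genes and S100a9 above 99.21%. There, Csf3r had a log2 ratio of 1.67, above 99.3% of long genes, and Cxcr2 0.72, above 89.3%. Retnlg had 1.94, above 82.9% of short genes. A set of 22 genes (0.136%), S100a8 and S100a9 among them, passed that ratio in both libraries. Many of the 22 are small non-coding RNAs and pseudogenes, such as Snora73a, Snora73b, Snora81, Snord17 and Rmrp, and 6 have no symbol and hold only 2 distinct sets of values. The set with the higher values had a signal of 193300 in osimertinib 3 and 105436 in naphthalene 3, against 16807 to 29430 in the other 9 libraries. Each entry of that set had 2169552 reads in osimertinib 3 and 229748 in naphthalene 3. The part of gene length or library preparation in these values was not tested.

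**Figure D2:**
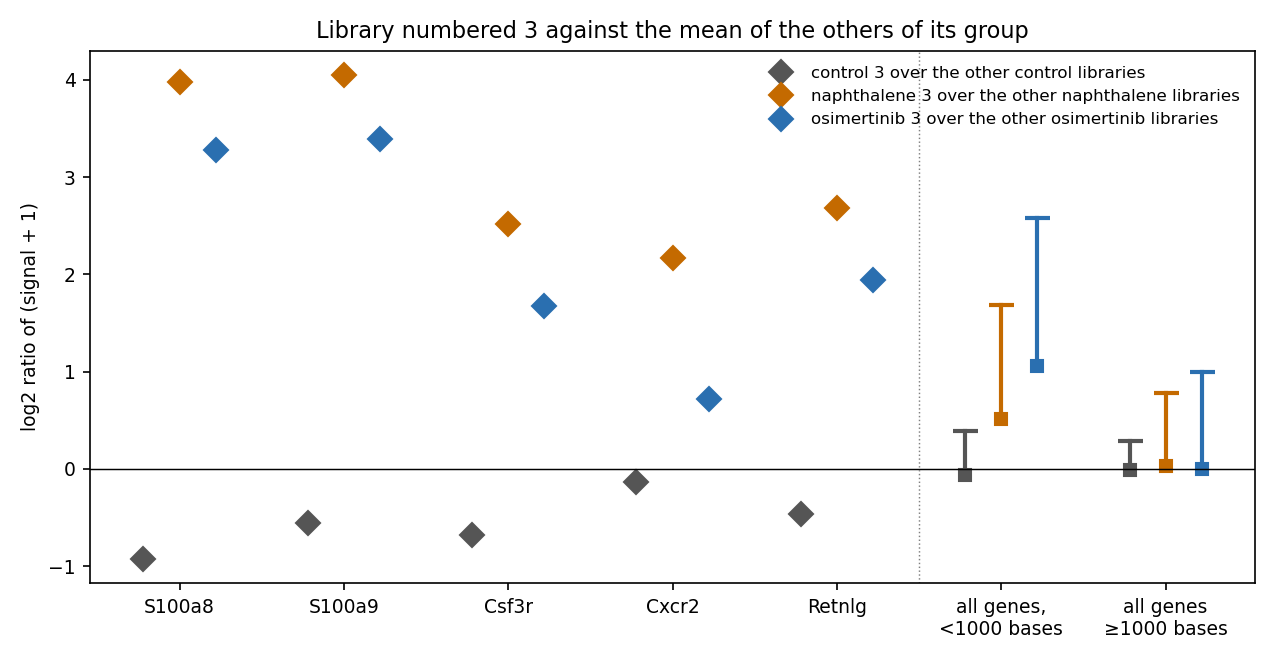
Log2 ratio (y axis) of the library numbered 3 to the mean of the other libraries of its group, on signal + 1, for the 5 tested neutrophil genes and for all genes of less than 1000 exonic bases and of 1000 or more. Squares are the medians of all genes of a length class and bars reach to their 95th percentile. S100a8 and S100a9 lie at 3.98 and 4.05 in naphthalene 3 and at 3.28 and 3.40 in osimertinib 3, and all 5 lie below 0 in control 3.

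Markers of other cells were summed over the same libraries. The neutrophil markers (9 of 11 measured, the 8 genes among them) summed to 43.5 to 70.7 in control, 29.7 to 392 in naphthalene and 37.2 to 402 in osimertinib, with the highest sums in the libraries numbered 3. Of the classical neutrophil markers outside the 8 genes, Ly6g was listed at 0 in all control libraries and had at most 5 reads in any library. Monocyte markers (8 of 8 measured) summed to 694 to 833 in control, 665 to 700 in naphthalene and 677 to 744 in osimertinib, a sum carried by Ace, which endothelium also expresses. The other 7 summed to 205 to 262, 177 to 205 and 175 to 222, with naphthalene 3 and osimertinib 3 highest of their groups. Singly, 3 of the 8 were highest of their group in naphthalene 3, where they ran from 0.445 to 3.36 times the mean of the others, and 5 of the 8 in osimertinib 3, where they ran from 0.833 to 2.18 times. Of all genes, 43.1% were highest of their group in naphthalene 3 and 39.6% in osimertinib 3, which also holds beside the counts below. Alveolar macrophage markers (8 of 8) were 412 to 453, 399 to 662 and 558 to 1068, with the libraries numbered 3 highest in both treated groups. Chil3 carried most of that sum, with a mean over all libraries of 399, followed by Mrc1 at 82.8. Singly, naphthalene 3 was highest for 8 of the 8, and osimertinib 3 was highest for 6 and lowest for 1. Red cell and platelet markers (8 of 8) were 1934 to 3577, 382 to 2768 and 757 to 10366, with osimertinib 3 highest but naphthalene 3 not. Haemoglobin genes such as Hbb-bs (mean 947) carried this sum, while the platelet genes Pf4 and Itga2b had means of 3.94 and 5.95. Of 7 tested singly, osimertinib 3 was highest for 6 and lowest for 1. B cell markers (5 of 5) were 102 to 162, 108 to 169 and 30.7 to 76.7. Markers of eosinophils, basophils and mast cells (4 of 7 measured) summed to 5.11 at most. The part of blood or macrophage content in the neutrophil gene values was not tested.

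**Figure D3:**
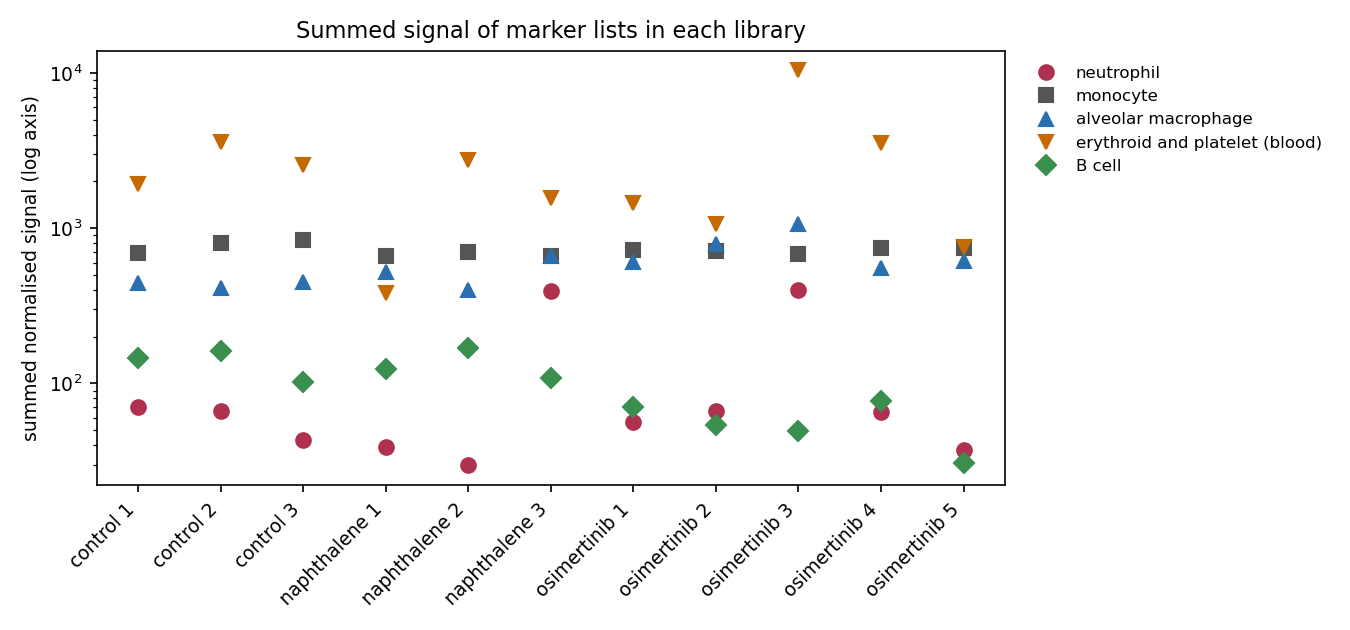
Summed deposited signal of each marker list (y axis, log scale) in each of 11 libraries, each shape being 1 list. The neutrophil sum reaches 392 in naphthalene 3 and 402 in osimertinib 3, and the monocyte sum, carried by Ace, lies between 665 and 833 in all libraries.

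The first comparison set naphthalene alone against no treatment. In every naphthalene library and in no control library, a single gene took 46.8% to 60.3% of the reads. Naphthalene and this library property therefore cannot be told apart between these groups. With limma on log2(signal + 1), 5 of the 8 passed the minimum mean signal of 1 and were tested (S100a8, S100a9, Csf3r, Cxcr2 and Retnlg), and 0 of the 5 were called at an adjusted p of 0.05, against 0% of the 16225 genes tested. Of all genes 7.46% had an unadjusted p under 0.05, and of these 5 none did. Differences of naphthalene minus control were 0.65 ± 1.10 (SE) for S100a8, 0.10 ± 1.09 for S100a9, 0.42 ± 0.67 for Csf3r, 0.45 ± 0.48 for Cxcr2 and -0.11 ± 0.71 for Retnlg, with limma adjusted p from 0.908 to 0.994. Their median was 0.42, and that of all genes was -0.06. The groups overlapped for all 5, and 16.2% of all genes had groups that did not overlap. Each SE was larger than the difference it belongs to. When libraries were scaled to equal totals, with the gene that took so many naphthalene reads left in, all 5 were called lower, but so was most of the table: 15763 genes were called and the median gene was at -1.45.

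A fit without naphthalene 3 and osimertinib 3 was chosen after the values were seen, and these libraries were the highest for these genes. Its p-values are therefore not those of a planned test. In it, the 4 differences above 0 fell below 0, and that of Retnlg, already below 0, lay further below. S100a8 had 7.27 ± 3.56 in the remaining naphthalene libraries (n = 2) and S100a9 had 7.86 ± 2.73. Naphthalene minus control was then -0.70 ± 0.36 for S100a8, -1.26 ± 0.27 for S100a9, -0.42 ± 0.31 for Csf3r, -0.28 ± 0.21 for Cxcr2 and -1.01 ± 0.26 for Retnlg. In that fit S100a9 was called lower (limma adjusted p = 0.0457), Retnlg missed the threshold (adjusted p = 0.0763), and 202 genes were called in all, where the fit of all libraries called 0. The S100a9 call rests on naphthalene 1 and 2, with 31 and 15 reads. Leaving out naphthalene 3 alone gave the same differences, with no call for these genes.

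The second comparison set osimertinib after naphthalene against naphthalene alone. Of the osimertinib libraries, only osimertinib 2 had the high read share of a single gene that every naphthalene library had. Of the 5 tested genes 0 were called, against 0% of all genes, and 10.3% of all genes but none of the 5 had an unadjusted p under 0.05. Osimertinib minus naphthalene was 0.05 ± 0.98 for S100a8, 0.29 ± 0.98 for S100a9, -0.21 ± 0.60 for Csf3r, -0.10 ± 0.43 for Cxcr2 and 0.33 ± 0.63 for Retnlg, with limma adjusted p from 0.890 to 0.991. Their median of 0.05 was close to the 0.06 of all genes. No gene of the 5 had groups that did not overlap, and 5.94% of all genes did. With equal totals all 5 were called higher, as part of 14420 genes called and a median gene at 1.10. Without the libraries numbered 3 of both treated groups, all 5 differences were above 0, at 0.73 ± 0.35 for S100a8, 0.97 ± 0.25 for S100a9, 0.28 ± 0.30 for Csf3r, 0.48 ± 0.20 for Cxcr2 and 0.84 ± 0.25 for Retnlg. None passed the threshold there, where 198 genes did, and the lowest limma adjusted p of the 5 was 0.0787, for S100a9.

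The third comparison set osimertinib after naphthalene against no treatment. It called 0 of the 5 genes, against 0.00616% of all genes, which is 1 gene, Mmp2, and 4.8% of all genes but none of the 5 had an unadjusted p under 0.05. Differences were 0.70 ± 0.98 for S100a8, 0.39 ± 0.98 for S100a9, 0.20 ± 0.60 for Csf3r, 0.35 ± 0.43 for Cxcr2 and 0.22 ± 0.63 for Retnlg (limma adjusted p = 0.999 for each). The median of the 5 was 0.35 and that of all genes -0.01. The groups overlapped for all 5, while 6.34% of all genes did not overlap. Without naphthalene 3 and osimertinib 3 they were 0.03 ± 0.30, -0.29 ± 0.22, -0.14 ± 0.26, 0.20 ± 0.18 and -0.17 ± 0.22 in the same order of genes, so S100a9, Csf3r and Retnlg changed sign. These 3 comparisons share libraries, so their values are not independent.

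**Figure D4:**
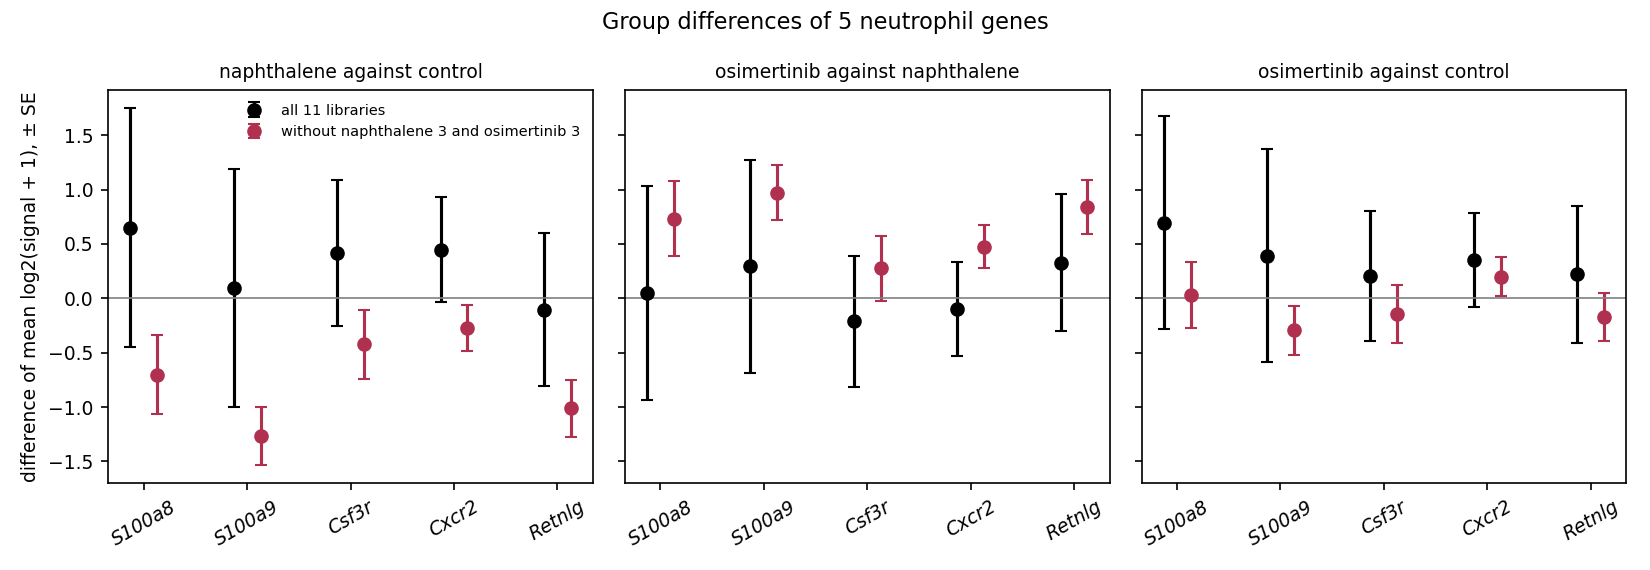
Limma differences of log2(signal + 1), with SE bars (y axis), for the 5 tested neutrophil genes in the 3 comparisons, from all 11 libraries and without naphthalene 3 and osimertinib 3. For naphthalene minus control, S100a9 moves from 0.10 to -1.26 and S100a8 from 0.65 to -0.70 when those libraries are left out.

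Il1r2, Camp and Ngp did not pass the minimum mean. Fitted without any minimum, they had limma adjusted p of 0.869, 0.505 and 0.856 for naphthalene minus control, 0.956, 0.621 and 0.989 for osimertinib minus naphthalene, and 1.00 each for osimertinib minus control, where the differences were 0.54 ± 0.42, 0.24 ± 0.14 and 0.38 ± 0.32. No call was made for them.

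The 7 further lists gave the other genes of the neutrophil programme. With limma on all 11 libraries, no gene of any of these lists was called in any of the 3 comparisons. Without both libraries numbered 3, the fit chosen after the values were seen, 2 of their genes were called, Lcn2 and Cebpb, both in naphthalene against control. That fit called 202 of 16265 genes in the same comparison, and whether the lists differ from that share was not tested. Of 16 granule proteins, 10 were tested. No ID was named Mpo, Elane or Ctsg, so these could not be analysed. The most abundant were lysozyme (Lyz2), at 2881 ± 247 in control, 3703 ± 1168 in naphthalene and 4538 ± 2286 in osimertinib, then Chil1, a chitinase-like protein, at 397 ± 23.6, 579 ± 69.0 and 639 ± 139, and haptoglobin (Hp) at 344 ± 18.4, 258 ± 50.7 and 239 ± 30.1, all of which lung cells other than neutrophils also make. Naphthalene 3 was the highest of its group for 4 of the 10 and the lowest for another 4, and osimertinib 3 was highest for 5 and lowest for 2. Of all genes, naphthalene 3 was highest for 43.1% and osimertinib 3 for 39.6%. Ltf, which encodes lactoferrin, was lowest in both, at 4.59 in naphthalene 3 against 18.0 and 52.6, and at 5.70 in osimertinib 3 against 15.1 to 29.5. Ltf and the next genes named here were picked after their values were seen.

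Lcn2, which encodes the iron-withholding granule protein lipocalin 2 and is also made by injured epithelium, had the largest difference of the list between naphthalene and control. Its signal was 58.8, 43.0 and 44.0 in control, 122, 124 and 94.1 in naphthalene, and 66.9, 137, 268, 87.3 and 62.8 in osimertinib. Every treated library lay above every control library, and naphthalene 3 was the lowest of its group where osimertinib 3 was the highest. Of all genes, 16.2% had no overlap between naphthalene and control, and 6.34% had none between osimertinib and control. Naphthalene minus control was 1.21 ± 0.43 (limma adjusted p = 0.586) and osimertinib minus control 1.13 ± 0.38 (adjusted p = 0.761). Without both libraries numbered 3, naphthalene minus control was 1.34 ± 0.26 and was called (limma adjusted p = 0.0408).

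Some other genes of the list were highest in both of those libraries. Mmp8, neutrophil collagenase, had 10.6 in naphthalene 3 against 2.84 and 3.16, and 5.79 in osimertinib 3 against 1.07 to 3.97. Slpi, an inhibitor of neutrophil elastase, had 31.2 in naphthalene 3 against 8.21 and 8.31, and 38.7 in osimertinib 3 against 11.6 to 14.3. Mmp9, gelatinase B, had 21.1 in naphthalene 3 against 4.74 and 5.93, and 11.7 in osimertinib 3 against 4.06 to 8.18.

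Of 20 other receptors and markers of neutrophils, 15 were tested. Naphthalene 3 was highest of its group for 13 of the 15, where it was highest for 43.1% of all genes, and osimertinib 3 for 11 of the 15, where the share of all genes was 39.6%. Trem1, a receptor that amplifies inflammatory signals, had 8.72 in naphthalene 3 against 1.26 and 1.58, but 3.56 in osimertinib 3 against 2.20 to 2.65. The most abundant of the list were the integrin chain Itgb2, at 59.4 ± 5.67 in control, 64.2 ± 10.5 in naphthalene and 73.8 ± 7.22 in osimertinib, and the histidine decarboxylase Hdc, at 51.5 ± 8.84, 64.7 ± 14.2 and 72.4 ± 32.9. These leukocyte genes are also expressed by other cells.

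Of the chemoattractants and granulopoietic signals, 6 of 14 were tested, and naphthalene 3 was highest for 3 and osimertinib 3 for 5. The shares of all genes were 43.1% and 39.6%. The most abundant was Cxcl15, a chemokine of the lung epithelium, at 758 ± 16.7 in control, 975 ± 86.3 in naphthalene and 1033 ± 329 in osimertinib. Il1b, the inflammatory cytokine for which Il1r2 is a decoy, had 21.6 in naphthalene 3 against 8.84 and 3.96, and 64.7 in osimertinib 3 against 5.80 to 11.6. Ppbp, a platelet chemokine, had 9.06 ± 4.95, 6.94 ± 1.57 and 7.47 ± 3.12 in the 3 groups. No ID was named Csf3, the gene of G-CSF, or Il17a, so these could not be analysed.

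The signalling lists had medians near 0. In G-CSF receptor signalling, 9 of 10 genes were tested, with medians of -0.04, 0.08 and 0.03 for naphthalene minus control, osimertinib minus naphthalene and osimertinib minus control. The kinase Jak1 had 170 ± 8.31, 167 ± 28.6 and 157 ± 5.75 in control, naphthalene and osimertinib, and the transcription factor Stat3 had 118 ± 2.47, 119 ± 6.36 and 138 ± 10.4. The Src-family kinase Lyn had 90.8 ± 5.52, 89.1 ± 19.6 and 93.7 ± 14.9. In the interleukin 1 receptor axis all 10 were tested, with medians of 0.07, 0.11 and 0.09. The signalling receptor Il1r1, next to Il1r2 on the chromosome, had 34.7 ± 2.85, 38.4 ± 0.173 and 40.0 ± 1.73. The kinase Irak1 had 39.8 ± 3.37, 34.1 ± 1.67 and 37.0 ± 6.09, and the ubiquitin ligase Traf6 33.6 ± 0.64, 33.2 ± 0.334 and 31.5 ± 3.95. Of 8 granulocyte transcription factors 6 were tested, with medians of -0.06, 0.17 and 0.07, and the most abundant were Klf6 at 125 ± 6.51, 126 ± 12.4 and 135 ± 29.0, Cebpa at 94.7 ± 6.83, 89.0 ± 16.6 and 98.6 ± 16.8, and Runx1 at 82.1 ± 5.25, 87.9 ± 4.67 and 82.4 ± 10.7.

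Cebpb, a transcription factor of emergency granulopoiesis that is in both the G-CSF and the transcription factor lists, stood out from these medians and was picked after its values were seen. Its signal was 37.0, 53.6 and 44.6 in control, 18.9, 12.7 and 28.9 in naphthalene, and 44.4, 21.97, 71.5, 31.4 and 51.2 in osimertinib. All naphthalene libraries lay below all control libraries, where 16.2% of all genes had no overlap between these groups. Osimertinib 2, the only osimertinib library in which a single gene took a high share of reads (43.9%), was the lowest of its group. Every naphthalene library and no control library had such a share, so it and naphthalene cannot be told apart between those groups. Naphthalene minus control was -1.18 ± 0.37 (limma adjusted p = 0.519), and osimertinib minus naphthalene was 1.05 ± 0.33 (adjusted p = 0.305). Without both libraries numbered 3, naphthalene minus control was -1.47 ± 0.29 and was called (limma adjusted p = 0.0428), on 60 and 32 reads in naphthalene 1 and 2.

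The S100 family and the receptors of S100a8 and S100a9 had 11 of 15 genes tested, with medians of 0.01, 0.18 and 0.21. Naphthalene 3 was highest for 9 of the 11 and osimertinib 3 for 10. Of the 11, 7 have under 1000 exonic bases, and naphthalene 3 was highest for 6 of those 7 and osimertinib 3 for 7, where over all short genes the shares were 66.9% and 72.2%. S100a6 had 66.9 ± 5.39 in control, 67.6 ± 26.5 in naphthalene and 89.1 ± 68.1 in osimertinib, and S100a11 had 96.1 ± 6.72, 125 ± 19.1 and 117 ± 45.2. Ager, a receptor for S100 proteins and a gene of alveolar type 1 cells, had 788 ± 32.4, 702 ± 80.2 and 698 ± 126.

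The genes whose log2(signal + 1) followed the mean z-score of the 5 tested neutrophil genes most closely over the 11 libraries were ranked among 11654 genes. They were Creg1 (r = 0.962), Lsp1 (0.960), Ppie (0.958), Gm25395 (0.955) and Selplg (0.951). Selplg encodes the P-selectin ligand of leukocytes and Lsp1 a leukocyte protein that binds actin. Over the 9 libraries left without naphthalene 3 and osimertinib 3, r was 0.781, 0.836, 0.778, 0.573 and 0.592 in the same order, so much of the likeness rests on those libraries. Selplg had a signal of 42.7 in naphthalene 3 and 39.6 in osimertinib 3, against 22.9 to 28.4 elsewhere. In the same order of libraries, Lsp1 had 72.1 and 70.7 against 38.2 to 53.2. Gm25395 had 70.7 and 58.1 against 11.9 to 23.2, and Creg1 had 80.3 and 75.6 against 47.5 to 61.4. Ppie had 17.4 and 18.7, above every other library as well. Whether leukocyte genes were more frequent in this list than among all ranked genes was not tested.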

How the data were processed

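Mouse lung total RNA was depleted of ribosomal RNA and sequenced with a directional kit, per the labels' protocols. The deposited table holds a normalised signal made by the authors, in CPM of a normalised library size. Tools listed in the submitters' processing notes, with no role given, are edgeR, Bowtie2, RSEM 1.3.0 and Trimmomatic 0.38, and the build is GRCm39. All values (100%) were whole multiples, within 0.01, of what 1 read is worth, so reads were recovered. Symbols came from GENCODE M21 (GRCm38): 23123 IDs were named and 132 were not. Libraries of a group differed by more than sampling noise (chi-square per degree of freedom at least 3.81), so each was counted. Of all genes, 55 had values identical to another gene, none of them among the 8.

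Here, log2(signal + 1) of genes with a mean of at least 1 was fitted with limma 3.58.1 in R 4.3.3 (trend, 3 groups in 1 fit), with Benjamini-Hochberg adjustment over 16225 genes and a threshold of 0.05. The scripts were tested on simulated data. On recovered reads, edgeR 4.0.16 called 0, 0 and 1 genes and DESeq2 1.42.0 called 11, 21 and 75 (naphthalene against control, osimertinib against naphthalene, osimertinib against control). Intervals are exact Poisson (95%, ending at 3.69 reads for 0 reads), and the floor used for 0 reads is 3 reads. Alternatives were other pseudocounts, minimums, scalings and designs, and each library left out.

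Members and lists were chosen with earlier results of these data known. Named genes are the 8, the 3 most abundant of each list, and the 5 most alike with a mean of at least 5; exceptions are marked, and 1 gene that the rule names is not reported here. Deviations of same-numbered naphthalene and osimertinib libraries correlated at 0.122, 0.159 and 0.523, all over the 0.1 required here to take numbers as pairs, and those of control with either group at -0.152 to 0.203, not all over it. Differently numbered naphthalene and osimertinib libraries reached 0.270, so numbers 1 and 2 are not singled out, and any pairing comes from the values alone.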

Additional observations from a re-analysis of the deposited data

Results flagged for a closer look

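In the osimertinib group, 1 library lay far from the other 4 for 4 of the 8 genes, and it was osimertinib 3 each time. Its signal was 131 for S100a8, 182 for S100a9, 24.4 for Retnlg and 3.65 for Il1r2. The gap to the next library divided by the group's range was 0.919, 0.937, 0.864 and 0.828, above Dixon's critical value of 0.710 for 5 libraries. Csf3r just missed it, at 0.7096. Chance gives such a gap in about 5% of groups, and the 8 genes share the same library, so these are not separate events. Groups of 3 were not tested in this way, so naphthalene 3 has no such test.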

How the results depend on the processing

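None of the 5 tested genes was called under the other pseudocounts, minimum means, median-ratio scaling, 2-group fits, replicate block, read-share term, edgeR or any single library left out. Without both libraries numbered 3 of the treated groups, an alternative chosen after seeing the data, S100a9 was called lower in naphthalene against control. DESeq2 called none, but gave S100a8 and S100a9 no adjusted p in any comparison and the other 3 none in naphthalene against control. Scaling all libraries to equal totals, which moves the median of all genes to -1.45, 1.10 and -0.34, led to calls for all 5 in both comparisons with naphthalene.

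Numbers of genes called, in the order naphthalene minus control, osimertinib minus naphthalene, osimertinib minus control (0, 0 and 1), became 15763, 14420 and 96 with equal totals, 21, 1 and 1 with only the 2 groups compared, 2, 2 and 2 with a term for libraries where 1 gene takes a high share of reads, 202, 198 and 3 without both libraries numbered 3, and 11, 21 and 75 with DESeq2. With the replicate block they were 0, 0 and 0, and the block changed no call of the neutrophil genes. Leaving out 1 library gave 0 to 12, 0 to 11 and 0 to 2, with the highest counts without osimertinib 2 (the last also without osimertinib 3).

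Directions turned as follows. For naphthalene minus control, equal totals gave -0.76 for S100a8, -1.34 for S100a9, -1.05 for Csf3r and -0.84 for Cxcr2, and the fit without both libraries numbered 3 gave -0.70, -1.26, -0.42 and -0.28. Retnlg was 0.051 with a pseudocount of 5, 0.51 with edgeR and 0.55 with DESeq2. For osimertinib minus naphthalene, S100a8 was -0.046 with a pseudocount of 5, -0.14 with the read-share term, -0.41 with edgeR and -0.43 with DESeq2, S100a9 was -0.42, -0.12 and -0.15 in the last 3, and Retnlg was -0.030 with DESeq2. Csf3r and Cxcr2 were 0.89 and 0.88 with equal totals, 0.22 and 0.016 with the replicate block, and 0.28 and 0.48 without both libraries numbered 3. For osimertinib minus control, equal totals gave -0.16 for Csf3r and -0.12 for Retnlg, and the fit without both gave -0.29 for S100a9, -0.14 for Csf3r and -0.17 for Retnlg. The cause was not tested.

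With 1 library left out, naphthalene minus control ran from -0.70 to 1.55 for S100a8, -1.26 to 0.94 for S100a9, -0.42 to 0.88 for Csf3r, -0.28 to 0.81 for Cxcr2 and -1.01 to 0.49 for Retnlg, each lowest without naphthalene 3. Osimertinib minus naphthalene ran from -0.85 to 1.40, -0.55 to 1.66, -0.68 to 0.63, -0.47 to 0.62 and -0.27 to 1.23, each highest without naphthalene 3. Osimertinib minus control ran from 0.03 to 1.03, -0.29 to 0.68, -0.14 to 0.50, 0.20 to 0.48 and -0.17 to 0.44, each lowest without osimertinib 3. Depth limits Camp, Ngp and Il1r2 in all groups, and all 8 genes in naphthalene 1 and 2, where S100a8 had 31 and 12 reads.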

Other observations

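Slfn4, a schlafen gene of myeloid cells, was among the 22 genes, many of them small non-coding RNAs and pseudogenes, with a log2 ratio over 2 in both naphthalene 3 and osimertinib 3. Its signal was 26.6 in naphthalene 3 (58 reads) and 71.5 in osimertinib 3 (802 reads), against 1.98 to 28.1 in the other 9 libraries. It was picked after its values were seen.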
